A study of Mus musculus with 6 samples.

Results

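DNA replication genes were compared between 3 sorted populations of mouse CD4+ CD44+ T cells. The set holds 44 genes that act in S phase, the stage of the cell cycle in which the genome is copied, and Mcm2 to Mcm7 are among them. Members were found by gene symbol in the annotation of the array platform. The rule sets no threshold on a measured level, but the genes were chosen with earlier results of these data known. All 44 were present, on 47 of the 23410 probe sets that carry a gene name; 19938 genes are named there by a probe set with a single symbol. Pcna, Rpa3 and Tk1 have 2 probe sets each, whose calls matched in all 3 comparisons, and values of these genes are those of the probe set with the higher mean. The sources used here do not say whether any of these probe sets also reads a processed copy of its gene.

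The cells were sorted by flow cytometry from lymph nodes that drain the site of immunisation. Every group came from Bcl6_RFP reporter mice, males aged 8 to 10 weeks that had received KLH/CFA, which stands for the antigen keyhole limpet haemocyanin emulsified with complete Freund's adjuvant. Cxcr5+Bcl6+ cells carried Cxcr5, the chemokine receptor that guides lymphocytes into B cell follicles, together with the red fluorescent reporter of Bcl6, the transcriptional repressor required by follicular helper T cells. Cxcr5+Bcl6- cells carried the receptor without the reporter, and Cxcr5-Bcl6- cells carried neither. Each group has 2 arrays, and the series calls them biological replicates. The sources used here do not give the number of mice behind an array, the day after immunisation or the construction of the reporter, and p-values measure only the spread between these arrays. The series title concerns the part of Bcl6 in the follicular helper T cell program, and no unimmunised sample was analysed here.

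Replication starts at origins, where the origin recognition complex, Cdc6 and Cdt1 load the ring-shaped Mcm2 to Mcm7 helicase onto DNA in a step called licensing. Cdc45, the GINS complex and Mcm10 turn the loaded ring into a moving helicase, after which primase, DNA polymerases, the sliding clamp Pcna and the single-strand binding protein RPA copy both strands. Ribonucleotide reductase, thymidylate synthase and related enzymes supply the deoxynucleotides. Many of these genes are transcribed late in G1 under E2F factors, and in lymph nodes their transcripts are abundant in lymphocytes that divide after meeting antigen.

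Promoter sequences were set out first, because E2F motifs are known in replication gene promoters and because the transcripts of the subunits of the Mcm ring did not all move in the same direction. RefSeq promoter windows (build GRCm38.p6), from 250 bases before to 50 bases after an annotated start, matched 36 of the 44 members with 42 windows. Both strands were searched for 4 octamers of the E2F type, TTTCCCGC, TTTCGCGC, TTTGCCGC and TTTGGCGC, whose matches can overlap. At least 1 octamer stood in 13 of the 42 windows (31.0%), against 744 of all 32851 windows of the same length (2.26%). These 13 windows belong to Orc1, Cdc6, Cdt1, Mcm3, Mcm5, Mcm6, Mcm7, Gins3, Pola1, Pold1, Pole2, Rfc3 and Lig1. The pentamer CCAAT stood in 25 of the 42 windows (59.5%), against 37.4% of all windows. The windows of 5 genes of the Mcm ring are printed 5′ to 3′ on the strand of the gene, with octamer matches on either strand in capitals. They lie at chr6:88898731-88899030, minus strand (Mcm2), chr1:20820263-20820562, minus strand (Mcm3), chr8:75109259-75109558, plus strand (Mcm5), chr1:128359656-128359955, minus strand (Mcm6) and chr5:138171834-138172133, minus strand (Mcm7).
Mcm2: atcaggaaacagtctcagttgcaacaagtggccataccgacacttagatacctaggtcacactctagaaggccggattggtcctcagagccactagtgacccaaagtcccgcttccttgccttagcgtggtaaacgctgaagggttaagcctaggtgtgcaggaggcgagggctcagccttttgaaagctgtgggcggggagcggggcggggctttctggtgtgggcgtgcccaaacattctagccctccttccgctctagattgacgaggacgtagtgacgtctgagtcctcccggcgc
Mcm3: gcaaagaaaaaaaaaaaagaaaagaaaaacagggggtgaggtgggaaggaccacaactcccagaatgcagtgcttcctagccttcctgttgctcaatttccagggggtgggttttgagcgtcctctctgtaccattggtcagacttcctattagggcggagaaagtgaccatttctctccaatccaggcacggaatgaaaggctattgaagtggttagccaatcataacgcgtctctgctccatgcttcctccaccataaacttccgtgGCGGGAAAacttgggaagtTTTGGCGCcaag
Mcm5: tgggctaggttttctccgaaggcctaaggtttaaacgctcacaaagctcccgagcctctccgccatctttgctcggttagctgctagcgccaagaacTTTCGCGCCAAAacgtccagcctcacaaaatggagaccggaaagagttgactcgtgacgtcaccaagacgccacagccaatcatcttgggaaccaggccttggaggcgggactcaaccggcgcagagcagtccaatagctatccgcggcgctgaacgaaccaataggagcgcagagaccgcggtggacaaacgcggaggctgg
Mcm6: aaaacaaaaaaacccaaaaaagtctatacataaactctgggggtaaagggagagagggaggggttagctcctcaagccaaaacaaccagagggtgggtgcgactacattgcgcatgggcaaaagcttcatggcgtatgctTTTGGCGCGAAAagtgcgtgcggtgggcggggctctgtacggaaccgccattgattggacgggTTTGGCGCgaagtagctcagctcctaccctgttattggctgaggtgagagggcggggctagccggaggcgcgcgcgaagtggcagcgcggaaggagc
Mcm7: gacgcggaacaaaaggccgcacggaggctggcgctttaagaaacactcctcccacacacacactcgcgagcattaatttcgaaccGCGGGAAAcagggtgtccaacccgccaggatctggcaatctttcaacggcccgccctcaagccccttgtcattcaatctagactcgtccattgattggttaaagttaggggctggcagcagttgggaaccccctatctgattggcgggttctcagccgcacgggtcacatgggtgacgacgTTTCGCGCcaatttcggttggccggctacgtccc
The Mcm6 window holds 3 octamers, 2 of them overlapping, and the Mcm5 window 2 that overlap. The Mcm3 window and the printed Mcm7 window hold 2 apart from each other, and the Mcm2 window none. Mcm7 has another window, at chr5:138171217-138171516, which is not printed and holds no octamer. Mcm4 matched no window. The windows of Rpa1, which shared the direction of Mcm6, and of Pold2 are not printed and hold no octamer. A match describes these letters and does not show that a factor binds there. The number of matches is given as a description of each window, and no relation to the levels was tested.

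The deposited values are log2 levels, so a difference of 1 is a 2-fold change, and levels of different probe sets are not compared. Most members were well expressed: 43 of the 47 probe sets lay at or above the median level of named probe sets, with a median percentile of 71.4. As a floor for signal, the 95th percentile of 1223 probe sets of olfactory, vomeronasal and trace amine-associated receptors was taken on each array. Orc1 and Gins1 were under it on both Cxcr5+Bcl6+ arrays, and Gmnn on both Cxcr5+Bcl6+ and both Cxcr5-Bcl6- arrays, so differences of these 3 genes rest in part on dim signal. Over all 35556 rows, with or without a gene name, replicate arrays correlated at r = 0.9937 for Cxcr5+Bcl6+ cells. The values were 0.9960 for Cxcr5+Bcl6- cells and 0.9939 for Cxcr5-Bcl6- cells. The interquartile range of the levels was 2.86 and 2.97 on the Cxcr5+Bcl6+ arrays, against 3.13 and 3.11 on the Cxcr5+Bcl6- arrays and 3.15 and 3.02 on the Cxcr5-Bcl6- arrays. The receptor probe sets had a median difference of 0.22 for Cxcr5+Bcl6+ against Cxcr5-Bcl6- cells and of 0.30 against Cxcr5+Bcl6- cells, and the part of this narrower scale in the members' differences was not tested beyond the renewed normalisations given beside them.

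Most replication genes fell in Cxcr5+Bcl6+ against Cxcr5+Bcl6- cells, and many rose in Cxcr5+Bcl6- against Cxcr5-Bcl6- cells, whereas Cxcr5+Bcl6+ against Cxcr5-Bcl6- cells split them. A call means an adjusted p under 0.05 in limma's moderated test over all named probe sets, and the 3 comparisons share their arrays. In these sorted mixtures, fewer cells in S phase and less RNA of these genes per cell cannot be told apart. Between Cxcr5+Bcl6+ and Cxcr5-Bcl6- cells 5 of 47 probe sets rose and 18 fell, where 17.6% of all probe sets rose and 17.7% fell. Among probe sets at or above the median level, where most members lie, 21.3% rose and 30.6% fell, so the members' 18 falls stand only somewhat above their background. The median difference of the 44 genes was -0.090 and turned to 0.00065 after renewed quantile normalisation, so the set as a whole has no settled direction there.

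Between Cxcr5+Bcl6- and Cxcr5-Bcl6- cells 20 probe sets rose and 0 fell, where 5.22% and 5.93% of all probe sets and 9.15% and 8.31% of those at or above the median level did so. At an unadjusted p under 0.05, 28 probe sets were higher and 3 lower. The median difference over the 44 genes was 0.33. The count of rises depended on single arrays: 8 were called without Cxcr5+Bcl6- replicate 1, 13 without Cxcr5+Bcl6- replicate 2 and 13 without Cxcr5-Bcl6- replicate 2, and leaving out the other arrays gave 19 to 23.

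Between Cxcr5+Bcl6+ and Cxcr5+Bcl6- cells 2 probe sets rose and 30 fell, where 13.4% and 13.0% of all probe sets and 11.6% and 23.6% of those at or above the median level did so. With each array centred on its median these backgrounds were 8.86% and 16.5%, and 2 member probe sets rose and 34 fell. The median difference over the 44 genes was -0.48. In 43 of the 47 probe sets both Cxcr5+Bcl6+ arrays lay below both Cxcr5+Bcl6- arrays, which held for 26.4% of all probe sets. That share was not computed for probe sets at or above the median level, where most members lie and called falls were more frequent.

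**Figure D1:**
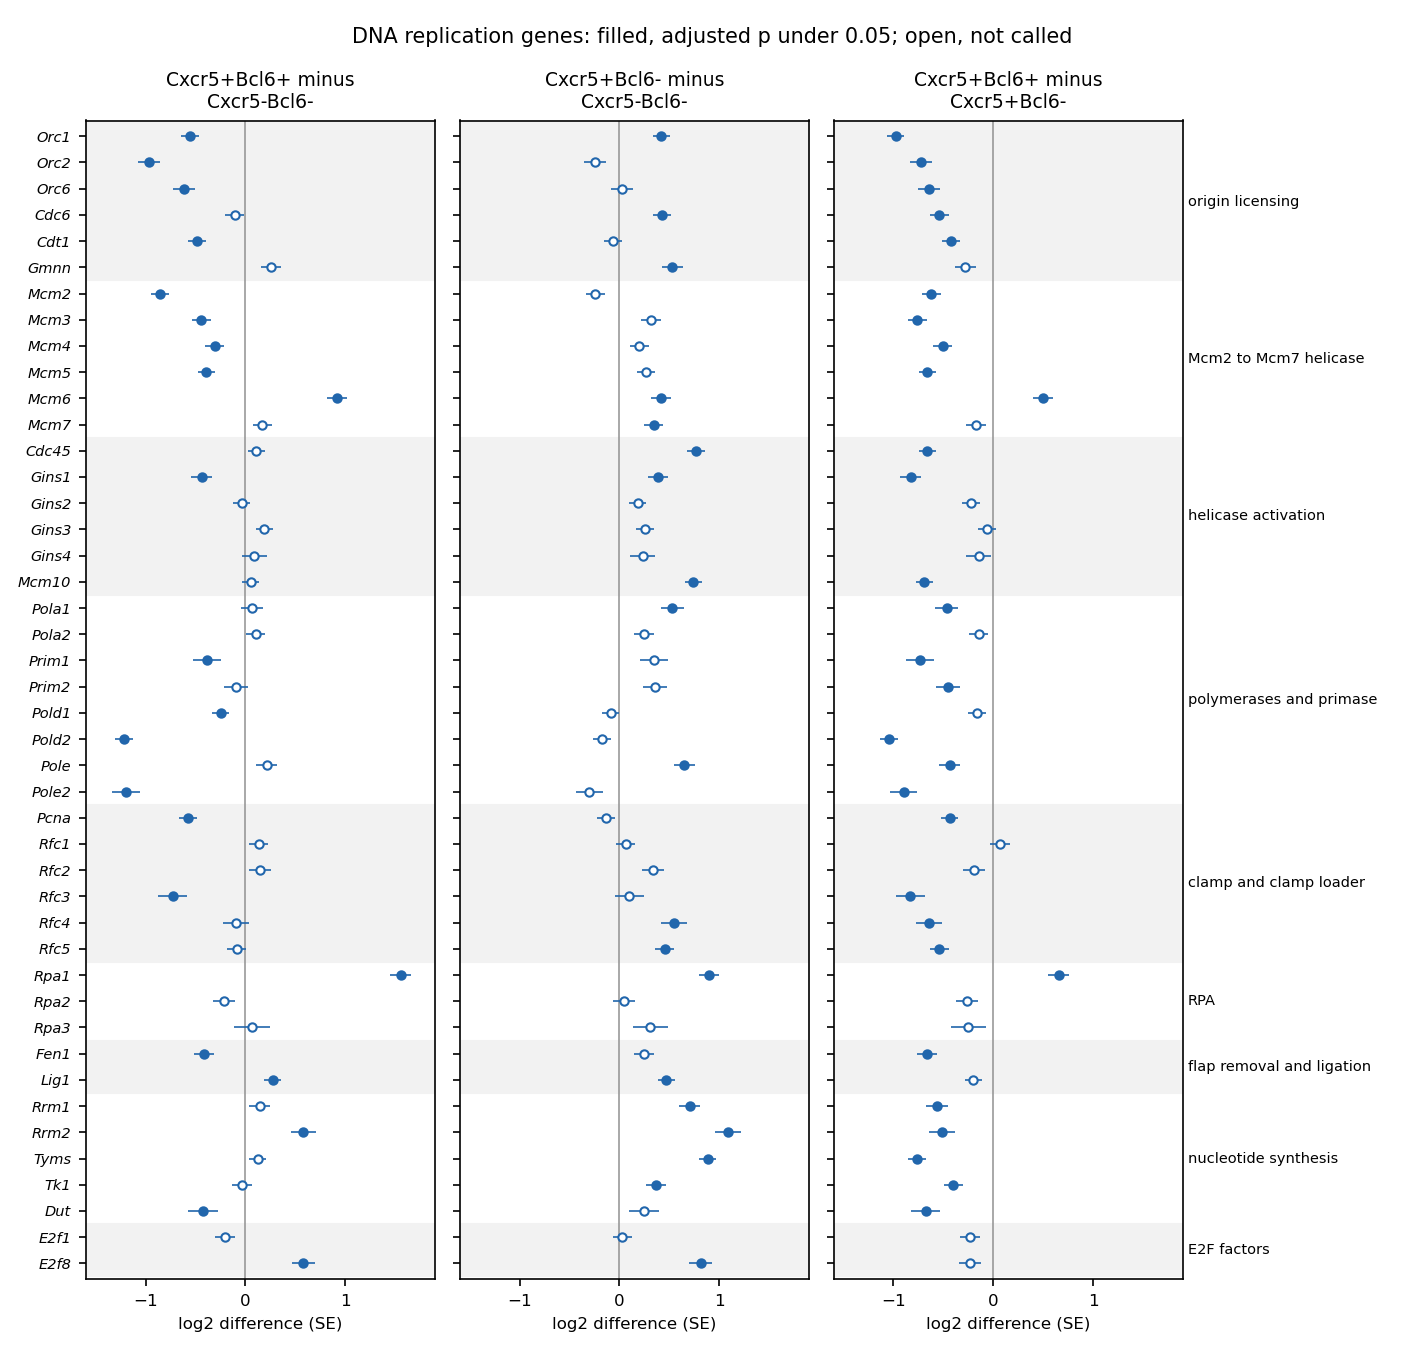
Log2 differences of the 44 replication genes, in rows grouped by role, for the 3 comparisons in columns, with bars of 1 SE from limma on 2 arrays a group. Filled points passed an adjusted p under 0.05; in the right panel most points lie left of 0, with Mcm6 (0.50) and Rpa1 (0.66) as filled points on the right.

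Origin licensing genes fell in Cxcr5+Bcl6+ cells. Against Cxcr5-Bcl6- cells 4 of 6 fell and 0 rose (median -0.52), and against Cxcr5+Bcl6- cells 5 of 6 fell and 0 rose (median -0.59). In Cxcr5+Bcl6- against Cxcr5-Bcl6- cells 3 of 6 rose and 0 fell (median 0.23). The counts of this and each later role are to be read beside the shares of probe sets at or above the median level. In Cxcr5+Bcl6+ against Cxcr5-Bcl6- cells 21.3% of those rose and 30.6% fell. The shares were 9.15% and 8.31% in Cxcr5+Bcl6- against Cxcr5-Bcl6- cells, and 11.6% and 23.6% in Cxcr5+Bcl6+ against Cxcr5+Bcl6- cells. Orc2, a core subunit of the origin recognition complex, had levels of 9.43 and 9.57 on the Cxcr5+Bcl6+ arrays, 10.28 and 10.17 on the Cxcr5+Bcl6- arrays, and 10.60 and 10.33 on the Cxcr5-Bcl6- arrays. The Cxcr5+Bcl6+ arrays were the lowest and did not overlap either other group, and the Cxcr5+Bcl6- arrays lay just under the Cxcr5-Bcl6- arrays. The difference of Cxcr5+Bcl6+ from Cxcr5-Bcl6- was -0.97 ± 0.11 (SE; adjusted p = 2.87e-05), that from Cxcr5+Bcl6- was -0.73 ± 0.11 (adjusted p = 5.07e-04), and Cxcr5+Bcl6- differed from Cxcr5-Bcl6- by -0.24 ± 0.11, which did not pass (adjusted p = 0.218).

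Orc1, the ATPase subunit whose level cycles and which joins the complex before licensing, had levels of 7.18 and 7.16 on the Cxcr5+Bcl6+ arrays, 8.16 and 8.13 on the Cxcr5+Bcl6- arrays, and 7.78 and 7.67 on the Cxcr5-Bcl6- arrays. Its 3 groups did not overlap, with Cxcr5+Bcl6- the highest and Cxcr5+Bcl6+ the lowest. It fell by 0.56 against Cxcr5-Bcl6- cells (adjusted p = 4.09e-04) and by 0.98 against Cxcr5+Bcl6- cells (adjusted p = 1.13e-05), and rose in Cxcr5+Bcl6- against Cxcr5-Bcl6- cells by 0.42 ± 0.088 (adjusted p = 0.00945). That rise ended without Cxcr5+Bcl6- replicate 1 (0.0990), Cxcr5+Bcl6- replicate 2 (0.0714) or Cxcr5-Bcl6- replicate 2 (0.0513), adjusted p in parentheses. Orc6 and Cdt1, the loader that brings the ring to the origin, fell in Cxcr5+Bcl6+ cells against both other groups, Orc6 by 0.61 and 0.64 and Cdt1 by 0.48 and 0.42 against Cxcr5-Bcl6- and Cxcr5+Bcl6- cells.

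Cdc6, the other loader, rose in Cxcr5+Bcl6- against Cxcr5-Bcl6- cells (0.43 ± 0.092, adjusted p = 0.0107) and fell in Cxcr5+Bcl6+ against Cxcr5+Bcl6- cells (-0.54 ± 0.092, adjusted p = 0.00124), while Cxcr5+Bcl6+ and Cxcr5-Bcl6- cells differed by -0.11 ± 0.092 (adjusted p = 0.409). The rise ended without Cxcr5+Bcl6- replicate 1 (0.105), Cxcr5+Bcl6- replicate 2 (0.0617) or Cxcr5-Bcl6- replicate 2 (0.0632). Gmnn, which encodes geminin, the protein that blocks Cdt1 after licensing, had levels of 7.29 and 7.44 on the Cxcr5+Bcl6+ arrays, 7.74 and 7.54 on the Cxcr5+Bcl6- arrays, and 7.17 and 7.05 on the Cxcr5-Bcl6- arrays. It rose in Cxcr5+Bcl6- against Cxcr5-Bcl6- cells by 0.53 ± 0.10 (adjusted p = 0.00590), a call that ended without Cxcr5+Bcl6- replicate 1 (0.0822), and the difference of Cxcr5+Bcl6+ from Cxcr5-Bcl6- was 0.25 ± 0.10 (adjusted p = 0.0777). Between Cxcr5+Bcl6+ and Cxcr5+Bcl6- cells Gmnn differed by -0.28 ± 0.10 (adjusted p = 0.0681), which passed after quantile normalisation (adjusted p = 0.0346), cyclic loess (0.0382) and median centring (0.0298).

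The Mcm2 to Mcm7 helicase did not move as a unit. In Cxcr5+Bcl6+ cells 4 of its 6 subunit genes fell and 1, Mcm6, rose, against either other group, with median differences of -0.35 from Cxcr5-Bcl6- and -0.56 from Cxcr5+Bcl6- cells. In Cxcr5+Bcl6- against Cxcr5-Bcl6- cells 2 of 6 rose and 0 fell (median 0.29). Mcm2 had levels of 10.17 and 10.32 on the Cxcr5+Bcl6+ arrays, 10.84 and 10.89 on the Cxcr5+Bcl6- arrays, and 11.08 and 11.13 on the Cxcr5-Bcl6- arrays. Its groups did not overlap, and Cxcr5+Bcl6+ was the lowest and Cxcr5-Bcl6- the highest. Mcm2 fell by 0.86 (adjusted p = 2.04e-05) against Cxcr5-Bcl6- cells and by 0.62 (adjusted p = 4.90e-04) against Cxcr5+Bcl6- cells, and Cxcr5+Bcl6- differed from Cxcr5-Bcl6- cells by -0.24 ± 0.092 (adjusted p = 0.139).

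Levels of Mcm3 were 9.47 and 9.51 on the Cxcr5+Bcl6+ arrays, 10.28 and 10.22 on the Cxcr5+Bcl6- arrays, and 10.04 and 9.83 on the Cxcr5-Bcl6- arrays. Those of Mcm4 were 10.25 and 10.43 on the Cxcr5+Bcl6+ arrays, 10.89 and 10.80 on the Cxcr5+Bcl6- arrays, and 10.67 and 10.62 on the Cxcr5-Bcl6- arrays. For Mcm5 they were 10.68 and 10.69 on the Cxcr5+Bcl6+ arrays, 11.36 and 11.33 on the Cxcr5+Bcl6- arrays, and 11.05 and 11.10 on the Cxcr5-Bcl6- arrays. In each of these 3 genes the groups did not overlap and ran in the same order, with Cxcr5+Bcl6- highest, then Cxcr5-Bcl6-, then Cxcr5+Bcl6+. Against Cxcr5-Bcl6- cells Mcm3 fell by 0.44 (adjusted p = 0.00363), Mcm5 by 0.39 (adjusted p = 0.00368) and Mcm4 by 0.31 (adjusted p = 0.0261). The Mcm4 call ended without Cxcr5+Bcl6+ replicate 1 (0.148) or Cxcr5-Bcl6- replicate 1 (0.0959) and after quantile normalisation (0.0984). Against Cxcr5+Bcl6- cells the falls were 0.76 for Mcm3, 0.66 for Mcm5 and 0.50 for Mcm4, with adjusted p of 1.58e-04, 1.86e-04 and 0.00239 in that order. Cxcr5+Bcl6- cells differed from Cxcr5-Bcl6- cells by 0.32 ± 0.097 in Mcm3 (adjusted p = 0.0591), 0.27 ± 0.086 in Mcm5 (0.0724) and 0.20 ± 0.095 in Mcm4 (0.264), none of which passed; Mcm3 and Mcm5 passed after quantile normalisation (0.0259 and 0.0320) and cyclic loess (0.0309 and 0.0424).

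Mcm6 ran the other way. Its levels were 11.37 and 11.41 on the Cxcr5+Bcl6+ arrays, 10.93 and 10.86 on the Cxcr5+Bcl6- arrays, and 10.59 and 10.36 on the Cxcr5-Bcl6- arrays. The groups did not overlap, and Cxcr5+Bcl6+ was the highest and Cxcr5-Bcl6- the lowest. Mcm6 rose by 0.92 ± 0.099 in Cxcr5+Bcl6+ against Cxcr5-Bcl6- cells (1.89-fold, adjusted p = 2.24e-05), by 0.50 ± 0.099 in Cxcr5+Bcl6+ against Cxcr5+Bcl6- cells (adjusted p = 0.00338) and by 0.42 ± 0.099 in Cxcr5+Bcl6- against Cxcr5-Bcl6- cells (adjusted p = 0.0179). The last of these calls ended without Cxcr5+Bcl6- replicate 1 (0.147), Cxcr5+Bcl6- replicate 2 (0.0695) or Cxcr5-Bcl6- replicate 2 (0.110). Mcm7 had levels of 10.75 and 10.80 on the Cxcr5+Bcl6+ arrays, 10.99 and 10.91 on the Cxcr5+Bcl6- arrays, and 10.71 and 10.50 on the Cxcr5-Bcl6- arrays. It rose in Cxcr5+Bcl6- against Cxcr5-Bcl6- cells by 0.34 ± 0.098 (adjusted p = 0.0450), a call that ended without Cxcr5+Bcl6+ replicate 1 (0.0627), Cxcr5+Bcl6+ replicate 2 (0.0627), Cxcr5+Bcl6- replicate 1 (0.325), Cxcr5+Bcl6- replicate 2 (0.143) or Cxcr5-Bcl6- replicate 2 (0.236). Cxcr5+Bcl6+ differed from Cxcr5-Bcl6- by 0.17 ± 0.098 (adjusted p = 0.215), which passed after quantile normalisation (0.29, adjusted p = 0.0238) and cyclic loess (0.25, adjusted p = 0.0425), and from Cxcr5+Bcl6- by -0.17 ± 0.098 (adjusted p = 0.224).

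**Figure D2:**
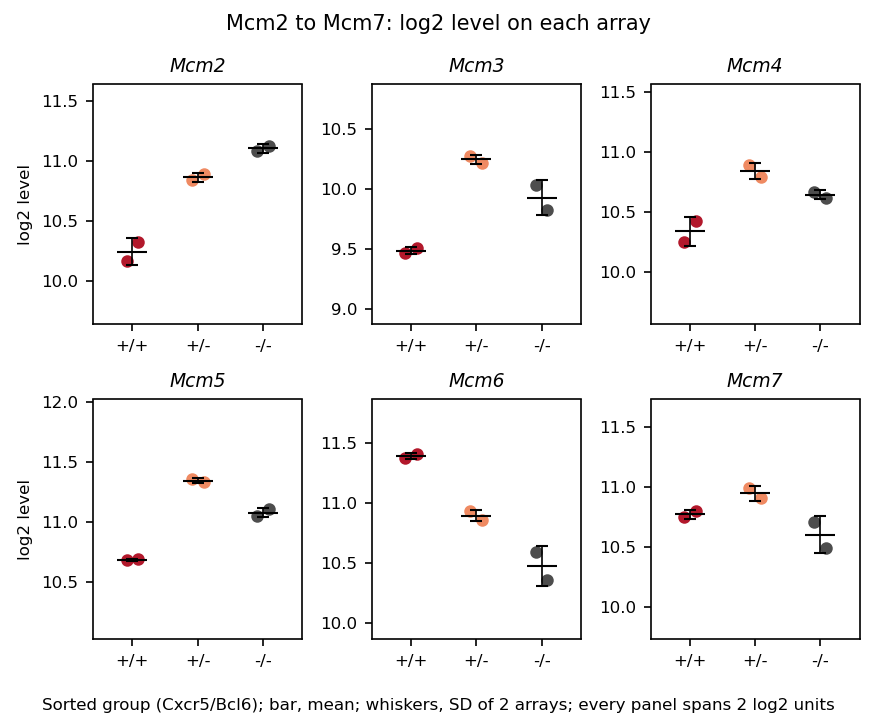
Log2 level of each Mcm2 to Mcm7 gene on each of the 6 arrays, with 1 point an array, a bar at the mean and whiskers of 1 SD of the 2 arrays of a group; +/+, +/- and -/- abbreviate the Cxcr5 and Bcl6 status of the sorted cells. Mcm6 is highest in Cxcr5+Bcl6+ cells (11.37 and 11.41), the group in which Mcm2, Mcm3, Mcm4 and Mcm5 are lowest.

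Set against the mean of the other 5 subunit genes of the same array, Mcm6 stood at 1.11 and 1.06 on the Cxcr5+Bcl6+ arrays, 0.057 and 0.030 on the Cxcr5+Bcl6- arrays, and -0.12 and -0.28 on the Cxcr5-Bcl6- arrays. Because probe sets differ in brightness, only the change of this offset between groups can be read, and it cancels any shift common to the ring. The groups did not overlap. The offset of Cxcr5+Bcl6+ arrays exceeded that of Cxcr5-Bcl6- arrays by 1.28 and that of Cxcr5+Bcl6- arrays by 1.04, and the offset of Cxcr5+Bcl6- arrays exceeded that of Cxcr5-Bcl6- arrays by 0.24. With 2 arrays against 2, a two-sided exact permutation test cannot go below p = 0.333, which each of the 3 comparisons gave. Against each other subunit gene alone, the offset between Cxcr5+Bcl6+ and Cxcr5-Bcl6- cells ran between 0.75 with Mcm7 and 1.78 with Mcm2, and that between Cxcr5+Bcl6+ and Cxcr5+Bcl6- cells between 0.67 with Mcm7 and 1.26 with Mcm3. The offset between Cxcr5+Bcl6- and Cxcr5-Bcl6- cells ran between 0.076 with Mcm7 and 0.66 with Mcm2, and so rests on the gene chosen. This unequal change does not show which of the subunit genes held its level in the cells.

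Genes of helicase activation rose in part in Cxcr5+Bcl6- cells. Against Cxcr5-Bcl6- cells 3 of 6 rose and 0 fell (median 0.32), and in Cxcr5+Bcl6+ against Cxcr5+Bcl6- cells 3 of 6 fell and 0 rose (median -0.44), whereas between Cxcr5+Bcl6+ and Cxcr5-Bcl6- cells 1 fell and 0 rose (median 0.070). Cdc45, part of the active helicase, had levels of 8.95 and 9.04 on the Cxcr5+Bcl6+ arrays, 9.68 and 9.63 on the Cxcr5+Bcl6- arrays, and 8.91 and 8.87 on the Cxcr5-Bcl6- arrays. The Cxcr5+Bcl6- arrays stood apart, and the other arrays lay close together. Cdc45 rose by 0.77 ± 0.088 in Cxcr5+Bcl6- against Cxcr5-Bcl6- cells (adjusted p = 1.77e-04) and fell by 0.66 in Cxcr5+Bcl6+ against Cxcr5+Bcl6- cells (adjusted p = 2.23e-04), and Cxcr5+Bcl6+ differed from Cxcr5-Bcl6- by 0.11 ± 0.088 (adjusted p = 0.381). Mcm10, a replication initiation factor outside the ring, had the same order, with levels of 8.44 and 8.51 on the Cxcr5+Bcl6+ arrays, 9.19 and 9.14 on the Cxcr5+Bcl6- arrays, and 8.40 and 8.45 on the Cxcr5-Bcl6- arrays. Its rise in Cxcr5+Bcl6- against Cxcr5-Bcl6- cells was 0.74 ± 0.088 (adjusted p = 2.28e-04), its fall in Cxcr5+Bcl6+ against Cxcr5+Bcl6- cells 0.69 (adjusted p = 1.54e-04), and Cxcr5+Bcl6+ and Cxcr5-Bcl6- arrays overlapped.

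Of the 4 GINS genes, whose products form a single complex, 1 was called. Gins1 had levels of 7.12 and 7.34 on the Cxcr5+Bcl6+ arrays, 8.00 and 8.11 on the Cxcr5+Bcl6- arrays, and 7.75 and 7.59 on the Cxcr5-Bcl6- arrays. It fell in Cxcr5+Bcl6+ cells, by 0.44 against Cxcr5-Bcl6- (adjusted p = 0.00609) and 0.83 against Cxcr5+Bcl6- cells (adjusted p = 1.51e-04), and rose by 0.39 ± 0.10 in Cxcr5+Bcl6- against Cxcr5-Bcl6- cells (adjusted p = 0.0350). The first call ended without Cxcr5+Bcl6+ replicate 1 (0.0590), and the last ended without Cxcr5+Bcl6- replicate 1 (0.0886), Cxcr5+Bcl6- replicate 2 (0.256) or Cxcr5-Bcl6- replicate 2 (0.166) and after cyclic loess (0.0581). Gins2 stood at 9.06 and 9.11 in Cxcr5+Bcl6+, 9.31 and 9.29 in Cxcr5+Bcl6- and 9.15 and 9.08 in Cxcr5-Bcl6- cells. Gins3 stood at 8.66 and 8.73 in Cxcr5+Bcl6+, 8.78 and 8.75 in Cxcr5+Bcl6- and 8.56 and 8.46 in Cxcr5-Bcl6- cells. Neither of these, nor Gins4, passed the test in any comparison, and both Gins2 and Gins3 were higher on both Cxcr5+Bcl6- arrays than on any other array.

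Polymerase and primase genes fell in Cxcr5+Bcl6+ cells against Cxcr5+Bcl6- cells, with 6 of 8 down and 0 up (median -0.46). Against Cxcr5-Bcl6- cells 4 of 8 fell and 0 rose (median -0.17), and in Cxcr5+Bcl6- against Cxcr5-Bcl6- cells 2 rose and 0 fell (median 0.30). The second subunits of the delta and epsilon polymerases had the largest falls of the 44 genes against Cxcr5-Bcl6- cells. Pold2, of polymerase delta, had levels of 10.37 and 10.49 on the Cxcr5+Bcl6+ arrays, 11.48 and 11.47 on the Cxcr5+Bcl6- arrays, and 11.61 and 11.69 on the Cxcr5-Bcl6- arrays. The Cxcr5+Bcl6+ arrays lay about 1 unit below all others. The difference was -1.22 ± 0.089 from Cxcr5-Bcl6- cells (2.33-fold lower, adjusted p = 1.14e-06) and -1.04 ± 0.089 from Cxcr5+Bcl6- cells (adjusted p = 7.17e-06), while Cxcr5+Bcl6- differed from Cxcr5-Bcl6- by -0.18 ± 0.089 (adjusted p = 0.299).

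Pole2, of polymerase epsilon, had levels of 8.29 and 8.55 on the Cxcr5+Bcl6+ arrays, 9.44 and 9.19 on the Cxcr5+Bcl6- arrays, and 9.80 and 9.44 on the Cxcr5-Bcl6- arrays. Again the Cxcr5+Bcl6+ arrays were the lowest, whereas those of the other 2 groups overlapped. Pole2 fell by 1.20 against Cxcr5-Bcl6- (adjusted p = 3.32e-05) and by 0.90 against Cxcr5+Bcl6- cells (adjusted p = 5.85e-04). Pole, the catalytic subunit of the same enzyme, had levels of 9.38 and 9.53 on the Cxcr5+Bcl6+ arrays, 9.96 and 9.82 on the Cxcr5+Bcl6- arrays, and 9.35 and 9.14 on the Cxcr5-Bcl6- arrays. It was highest on the Cxcr5+Bcl6- arrays. It rose by 0.65 ± 0.10 in Cxcr5+Bcl6- against Cxcr5-Bcl6- cells (adjusted p = 0.00199) and fell by 0.44 in Cxcr5+Bcl6+ against Cxcr5+Bcl6- cells (adjusted p = 0.00945), and this fall ended without Cxcr5+Bcl6+ replicate 1 (0.0786) or Cxcr5+Bcl6- replicate 1 (0.0978). Between Cxcr5+Bcl6+ and Cxcr5-Bcl6- cells the difference was 0.21 ± 0.10 (adjusted p = 0.143), which passed after quantile normalisation (0.28, adjusted p = 0.0328).

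Pold1, the catalytic subunit of polymerase delta, fell by 0.25 against Cxcr5-Bcl6- cells (adjusted p = 0.0432), a call that ended when any of the 6 arrays was left out (adjusted p of 0.0641 to 0.133) and after quantile normalisation (0.0543). Prim1, the catalytic primase subunit, fell by 0.39 against Cxcr5-Bcl6- (adjusted p = 0.0498) and by 0.74 against Cxcr5+Bcl6- cells (adjusted p = 0.00245). Its call against Cxcr5-Bcl6- ended without Cxcr5+Bcl6+ replicate 1 (0.269), Cxcr5+Bcl6+ replicate 2 (0.0922) or Cxcr5-Bcl6- replicate 1 (0.402), and after quantile normalisation (0.0803) and cyclic loess (0.0803). Its partner Prim2 fell against Cxcr5+Bcl6- cells by 0.45 (adjusted p = 0.0142), a call that ended without Cxcr5+Bcl6+ replicate 1 (0.102), Cxcr5+Bcl6+ replicate 2 (0.0512) or Cxcr5+Bcl6- replicate 1 (0.128). Pola1, the catalytic subunit of polymerase alpha, rose by 0.53 ± 0.11 in Cxcr5+Bcl6- against Cxcr5-Bcl6- cells (adjusted p = 0.0107) and fell by 0.47 in Cxcr5+Bcl6+ against Cxcr5+Bcl6- cells (adjusted p = 0.0106). The rise ended without Cxcr5+Bcl6- replicate 1 (0.0931) or Cxcr5-Bcl6- replicate 2 (0.0647), and the fall ended without Cxcr5+Bcl6+ replicate 1 (0.0723), Cxcr5+Bcl6+ replicate 2 (0.0519) or Cxcr5+Bcl6- replicate 1 (0.0947). Pola2, its accessory subunit, stood at 10.13 and 10.32 in Cxcr5+Bcl6+, 10.31 and 10.43 in Cxcr5+Bcl6- and 10.10 and 10.15 in Cxcr5-Bcl6- cells and passed in no comparison.

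The clamp Pcna and its loader differed among themselves. Of the 6 genes 2 fell and 0 rose in Cxcr5+Bcl6+ against Cxcr5-Bcl6- cells, 4 fell and 0 rose against Cxcr5+Bcl6- cells, and 2 rose and 0 fell in Cxcr5+Bcl6- against Cxcr5-Bcl6- cells, with medians of -0.090, -0.49 and 0.22 in that order. The first of these medians turned to 0.033 after quantile normalisation. The 2 falls in Cxcr5+Bcl6+ against Cxcr5-Bcl6- cells (33.3%) are near the 30.6% of probe sets at or above the median level. Pcna, the ring that holds polymerases on DNA, had levels of 12.25 and 12.35 on the Cxcr5+Bcl6+ arrays, 12.72 and 12.75 on the Cxcr5+Bcl6- arrays, and 12.90 and 12.85 on the Cxcr5-Bcl6- arrays. The groups did not overlap, with Cxcr5+Bcl6+ the lowest and Cxcr5-Bcl6- the highest. Pcna fell by 0.57 against Cxcr5-Bcl6- (adjusted p = 3.30e-04) and by 0.44 against Cxcr5+Bcl6- cells (adjusted p = 0.00359), and Cxcr5+Bcl6- differed from Cxcr5-Bcl6- by -0.14 ± 0.088 (adjusted p = 0.455).

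Rfc3, a subunit of the loader, had levels of 9.14 and 9.33 on the Cxcr5+Bcl6+ arrays, 10.21 and 9.91 on the Cxcr5+Bcl6- arrays, and 10.19 and 9.74 on the Cxcr5-Bcl6- arrays. Its Cxcr5+Bcl6+ arrays were the lowest, and the other groups overlapped. It fell by 0.73 against Cxcr5-Bcl6- (adjusted p = 0.00218) and by 0.83 against Cxcr5+Bcl6- cells (adjusted p = 0.00157). Rfc4, another loader subunit, had levels of 10.20 and 10.27 on the Cxcr5+Bcl6+ arrays, 11.02 and 10.74 on the Cxcr5+Bcl6- arrays, and 10.51 and 10.15 on the Cxcr5-Bcl6- arrays, and only its Cxcr5+Bcl6- arrays stood apart. In Cxcr5+Bcl6- against Cxcr5-Bcl6- cells Rfc4 rose by 0.55 ± 0.13 (adjusted p = 0.0177) and Rfc5 by 0.46 ± 0.096 (adjusted p = 0.00948), and both fell in Cxcr5+Bcl6+ against Cxcr5+Bcl6- cells, by 0.64 and 0.54. Those rises ended without Cxcr5+Bcl6- replicate 1 (0.149) or Cxcr5-Bcl6- replicate 2 (0.109) for Rfc4 and without Cxcr5+Bcl6- replicate 1 (0.164) for Rfc5. Rfc1, the large subunit, stood at 9.73 and 9.75 in Cxcr5+Bcl6+, 9.69 and 9.65 in Cxcr5+Bcl6- and 9.72 and 9.49 in Cxcr5-Bcl6- cells and Rfc2 at 9.65 and 9.79 in Cxcr5+Bcl6+, 9.79 and 10.03 in Cxcr5+Bcl6- and 9.66 and 9.49 in Cxcr5-Bcl6- cells, and neither passed in any comparison.

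RPA, the trimer that covers single-stranded DNA, had 1 gene of 3 called in each comparison. Rpa1, its large subunit, had levels of 11.84 and 11.83 on the Cxcr5+Bcl6+ arrays, 11.23 and 11.13 on the Cxcr5+Bcl6- arrays, and 10.41 and 10.15 on the Cxcr5-Bcl6- arrays. The groups did not overlap and followed the order seen for Mcm6. Rpa1 rose by 1.55 ± 0.10 in Cxcr5+Bcl6+ against Cxcr5-Bcl6- cells (2.94-fold, adjusted p = 5.28e-07), by 0.66 ± 0.10 in Cxcr5+Bcl6+ against Cxcr5+Bcl6- cells (adjusted p = 7.22e-04) and by 0.90 ± 0.10 in Cxcr5+Bcl6- against Cxcr5-Bcl6- cells (adjusted p = 1.90e-04). The middle subunit gene Rpa2 stood at 9.91 and 10.08 in Cxcr5+Bcl6+, 10.33 and 10.19 in Cxcr5+Bcl6- and 10.34 and 10.08 in Cxcr5-Bcl6- cells. The small subunit gene Rpa3 stood at 9.01 and 9.13 in Cxcr5+Bcl6+, 9.32 and 9.31 in Cxcr5+Bcl6- and 9.37 and 8.64 in Cxcr5-Bcl6- cells. Neither passed in any comparison.

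Of the 2 genes that complete Okazaki fragments, the short pieces of the lagging strand, Fen1, the flap endonuclease, had levels of 8.77 and 8.82 on the Cxcr5+Bcl6+ arrays, 9.58 and 9.33 on the Cxcr5+Bcl6- arrays, and 9.23 and 9.18 on the Cxcr5-Bcl6- arrays. The Cxcr5+Bcl6+ arrays were lowest and the Cxcr5+Bcl6- arrays highest. Fen1 fell by 0.41 against Cxcr5-Bcl6- (adjusted p = 0.00698) and by 0.66 against Cxcr5+Bcl6- cells (adjusted p = 5.45e-04), and Cxcr5+Bcl6- differed from Cxcr5-Bcl6- by 0.25 ± 0.10 (adjusted p = 0.156). Lig1, the ligase of the same step, had levels of 9.35 and 9.35 on the Cxcr5+Bcl6+ arrays, 9.57 and 9.52 on the Cxcr5+Bcl6- arrays, and 9.10 and 9.05 on the Cxcr5-Bcl6- arrays. It rose by 0.27 ± 0.086 in Cxcr5+Bcl6+ against Cxcr5-Bcl6- cells (adjusted p = 0.0284), a call that ended when any of the 6 arrays was left out (adjusted p of 0.0508 to 0.0904) and after median centring (0.0787). In Cxcr5+Bcl6- against Cxcr5-Bcl6- cells it rose by 0.47 ± 0.086 (adjusted p = 0.00425), which ended without Cxcr5+Bcl6- replicate 1 (0.0620).

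Most of the 5 nucleotide synthesis genes in the set rose in Cxcr5+Bcl6- cells, whereas several listed outside the set fell, as given further below. Against Cxcr5-Bcl6- cells 4 of 5 rose and 0 fell (median 0.71), and in Cxcr5+Bcl6+ against Cxcr5+Bcl6- cells 5 of 5 fell (median -0.56), while between Cxcr5+Bcl6+ and Cxcr5-Bcl6- cells 1 rose and 1 fell (median 0.12). Rrm2, the small subunit of ribonucleotide reductase, whose level limits the enzyme in S phase, had levels of 10.38 and 10.44 on the Cxcr5+Bcl6+ arrays, 11.06 and 10.78 on the Cxcr5+Bcl6- arrays, and 10.00 and 9.66 on the Cxcr5-Bcl6- arrays. The groups did not overlap, and Cxcr5+Bcl6- was the highest and Cxcr5-Bcl6- the lowest. Rrm2 rose by 0.58 ± 0.13 in Cxcr5+Bcl6+ (adjusted p = 0.00378) and by 1.09 ± 0.13 in Cxcr5+Bcl6- cells (2.13-fold, adjusted p = 2.11e-04), each against Cxcr5-Bcl6- cells. It fell by 0.51 in Cxcr5+Bcl6+ against Cxcr5+Bcl6- cells (adjusted p = 0.0119), a call that ended without Cxcr5+Bcl6+ replicate 1 (0.0914), Cxcr5+Bcl6+ replicate 2 (0.0568) or Cxcr5+Bcl6- replicate 1 (0.116).

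Rrm1, the large subunit, had levels of 11.12 and 11.13 on the Cxcr5+Bcl6+ arrays, 11.77 and 11.61 on the Cxcr5+Bcl6- arrays, and 11.12 and 10.85 on the Cxcr5-Bcl6- arrays. Tyms, thymidylate synthase, had levels of 9.60 and 9.58 on the Cxcr5+Bcl6+ arrays, 10.40 and 10.30 on the Cxcr5+Bcl6- arrays, and 9.44 and 9.49 on the Cxcr5-Bcl6- arrays. In both genes the Cxcr5+Bcl6- arrays stood above all others. Rrm1 rose by 0.71 ± 0.11 (adjusted p = 0.00139) and Tyms by 0.89 ± 0.088 (adjusted p = 6.60e-05) in Cxcr5+Bcl6- against Cxcr5-Bcl6- cells, and they fell by 0.56 (adjusted p = 0.00252) and 0.76 (adjusted p = 7.49e-05) in Cxcr5+Bcl6+ against Cxcr5+Bcl6- cells. Cxcr5+Bcl6+ and Cxcr5-Bcl6- cells differed by 0.14 ± 0.11 in Rrm1 (adjusted p = 0.349) and 0.12 ± 0.088 in Tyms (adjusted p = 0.324).

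Tk1, the thymidine kinase of the salvage route, had levels of 8.85 and 8.65 on the Cxcr5+Bcl6+ arrays, 9.19 and 9.10 on the Cxcr5+Bcl6- arrays, and 8.72 and 8.84 on the Cxcr5-Bcl6- arrays. It rose by 0.37 ± 0.099 in Cxcr5+Bcl6- against Cxcr5-Bcl6- cells (adjusted p = 0.0352), a call that ended without Cxcr5+Bcl6- replicate 1 (0.272), Cxcr5+Bcl6- replicate 2 (0.111) or Cxcr5-Bcl6- replicate 1 (0.143) and after quantile normalisation (0.0641), and fell by 0.40 in Cxcr5+Bcl6+ against Cxcr5+Bcl6- cells (adjusted p = 0.0118), which ended without Cxcr5+Bcl6+ replicate 2 (0.0798) or Cxcr5+Bcl6- replicate 1 (0.108). Dut, the enzyme that removes dUTP, had levels of 8.97 and 9.21 on the Cxcr5+Bcl6+ arrays, 9.90 and 9.63 on the Cxcr5+Bcl6- arrays, and 9.75 and 9.29 on the Cxcr5-Bcl6- arrays. The Cxcr5+Bcl6+ arrays were the lowest. Dut fell by 0.43 against Cxcr5-Bcl6- cells (adjusted p = 0.0435) and by 0.68 against Cxcr5+Bcl6- cells (adjusted p = 0.00598). The first call ended without Cxcr5+Bcl6+ replicate 1 (0.285), Cxcr5+Bcl6+ replicate 2 (0.0664) or Cxcr5-Bcl6- replicate 1 (0.346), and after quantile normalisation (0.0702) and cyclic loess (0.0710), and the second ended without Cxcr5+Bcl6+ replicate 1 (0.0833).

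**Figure D3:**
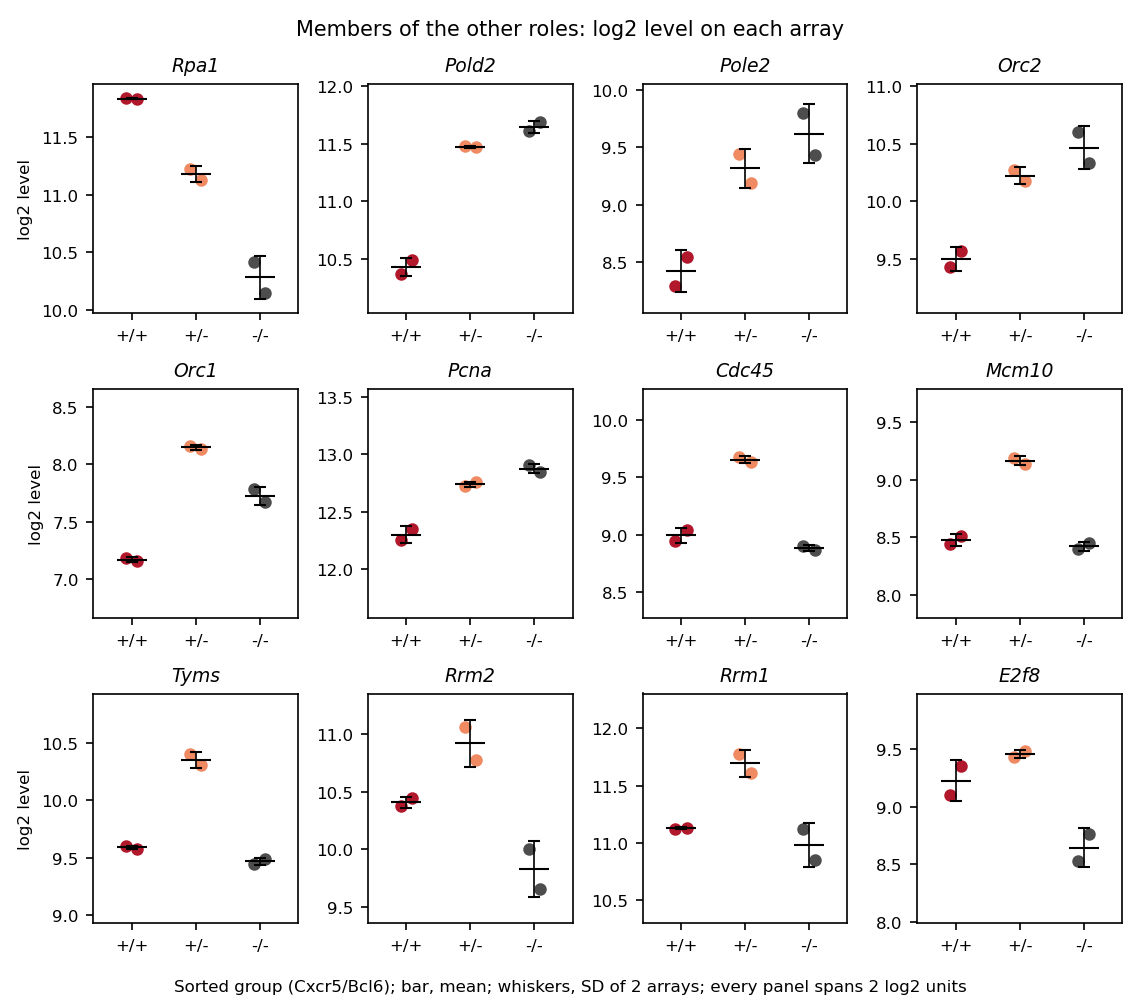
Log2 level of 12 replication genes of other roles on each of the 6 arrays, drawn as in the plot of Mcm levels, with 1 point an array, a bar at the mean and whiskers of 1 SD. Rpa1 is highest and Pold2, Pole2 and Orc2 are lowest in Cxcr5+Bcl6+ cells, and Cdc45, Mcm10, Tyms and Rrm1 are highest in Cxcr5+Bcl6- cells.

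Of the E2F factors, E2f1, an activator of S phase genes, had levels of 8.24 and 8.34 on the Cxcr5+Bcl6+ arrays, 8.46 and 8.59 on the Cxcr5+Bcl6- arrays, and 8.40 and 8.58 on the Cxcr5-Bcl6- arrays, and its Cxcr5+Bcl6- and Cxcr5-Bcl6- arrays overlapped. Its difference of Cxcr5+Bcl6+ from Cxcr5-Bcl6- was -0.20 ± 0.099 (adjusted p = 0.141). That from Cxcr5+Bcl6- was -0.23 ± 0.099 (adjusted p = 0.107), which passed after cyclic loess (0.0448) and median centring (0.0357). E2f8, an atypical member that represses E2F targets, had levels of 9.10 and 9.35 on the Cxcr5+Bcl6+ arrays, 9.44 and 9.48 on the Cxcr5+Bcl6- arrays, and 8.53 and 8.76 on the Cxcr5-Bcl6- arrays. Its Cxcr5-Bcl6- arrays were the lowest. E2f8 rose by 0.58 ± 0.11 in Cxcr5+Bcl6+ (adjusted p = 0.00163) and by 0.82 ± 0.11 in Cxcr5+Bcl6- cells (adjusted p = 6.91e-04), each against Cxcr5-Bcl6- cells, and the groups with Cxcr5 differed by -0.24 ± 0.11 (adjusted p = 0.151).

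**Figure D4:**
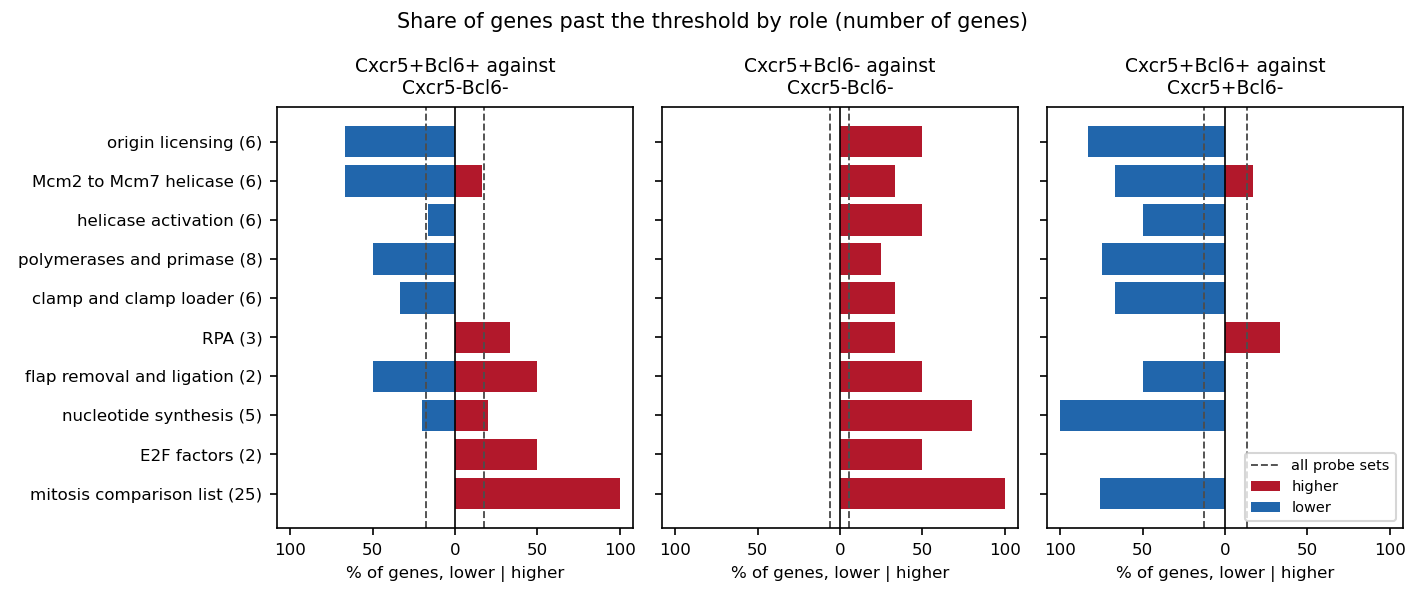
Share of the genes of each role (number of genes in parentheses) that passed an adjusted p under 0.05 as higher (right, red) or lower (left, blue) in the 3 comparisons, with dashed lines at the share of all named probe sets. In the middle panel no bar runs to the left, and in the right panel all 5 nucleotide synthesis genes are lower.

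Side by side, the medians of origin licensing, of polymerases and of nucleotide synthesis lay furthest apart in Cxcr5+Bcl6+ against Cxcr5-Bcl6- cells. Their median differences were -0.52 for origin licensing, -0.17 for polymerases and primase and 0.12 for nucleotide synthesis, against -0.054 for all named probe sets at or above the median level. In Cxcr5+Bcl6- against Cxcr5-Bcl6- cells they were 0.23, 0.30 and 0.71, against -0.020. Between Cxcr5+Bcl6+ and Cxcr5+Bcl6- cells they were -0.59, -0.46 and -0.56, against -0.050. These are descriptions of 5 to 8 genes each, and the difference between roles was not tested. The signs of these medians were kept under quantile normalisation, cyclic loess and median centring. The median of nucleotide synthesis covers only genes of the set. Outside it, Shmt1 (-2.11), Dctd (-2.02) and Ctps (-1.96) fell in Cxcr5+Bcl6+ against Cxcr5-Bcl6- cells. Umps, Nme1, Nme2 and Dtymk also fell there, whereas Dck rose (1.98) and Rrm2b and Samhd1 were not called.

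Genes called in pairs of comparisons fell into a few patterns. In 16 genes Cxcr5+Bcl6+ was lower than both other groups, which were Orc1, Orc2, Orc6, Cdt1, Mcm2, Mcm3, Mcm4, Mcm5, Gins1, Prim1, Pold2, Pole2, Pcna, Rfc3, Fen1 and Dut. They took 17 of the 47 probe sets (36.2%), against 11.4% of all probe sets. When only probe sets at or above the median level were tested, these shares were 34.9% and 23.5%, which lie closer together. With a minimum of 1.5-fold, 6 of the 16 genes kept this pattern (12.8%, against 4.74%). In 13 genes Cxcr5+Bcl6- was higher than both other groups, which were Orc1, Cdc6, Cdc45, Gins1, Mcm10, Pola1, Pole, Rfc4, Rfc5, Rrm1, Rrm2, Tyms and Tk1. They took 14 probe sets (29.8%), against 1.11% of all probe sets. This count rested on single arrays. Without Cxcr5+Bcl6- replicate 1, 4 of the 13 genes kept the pattern, which were Cdc45, Mcm10, Rrm1 and Tyms (8.51% of member probe sets, against 0.517% of all). Without Cxcr5-Bcl6- replicate 2, 8 of the 13 kept it (19.1%, against 0.974%). With p-values adjusted over all rows 6 kept it, and with a minimum of 1.5-fold 3 did. Mcm6 and Rpa1 were the members in which Cxcr5+Bcl6+ was higher than both other groups (4.26%, against 10.2%). Gins2, Gins3, Gins4, Pola2, Rfc1, Rfc2, Rpa2, Rpa3 and E2f1 passed in no comparison.

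Outside the set 65 other listed genes of replication and S phase entry were tested. In Cxcr5+Bcl6+ against Cxcr5-Bcl6- cells 15 rose and 20 fell (23.1% and 30.8%, median -0.065), which is near the 21.3% and 30.6% of all probe sets at or above the median level. In Cxcr5+Bcl6- against Cxcr5-Bcl6- cells 19 rose and 8 fell (29.2% and 12.3%, median 0.15), against 9.15% and 8.31%. In Cxcr5+Bcl6+ against Cxcr5+Bcl6- cells 4 rose and 30 fell (6.15% and 46.2%, median -0.26), against 11.6% and 23.6%. In the comparisons with Cxcr5+Bcl6+ cells the largest rise and the largest falls were of nucleotide metabolism genes. Dck, the deoxycytidine kinase of the salvage route, stood at 11.14 and 11.19 in Cxcr5+Bcl6+, 10.32 and 10.34 in Cxcr5+Bcl6- and 9.25 and 9.13 in Cxcr5-Bcl6- cells, and rose by 1.98 ± 0.089, 1.14 ± 0.089 and 0.83 ± 0.089 in the 3 comparisons in the same order (adjusted p = 2.78e-08, 1.21e-05 and 3.92e-05). Shmt1, which supplies the one-carbon unit for thymidylate, stood at 8.79 and 8.97 in Cxcr5+Bcl6+, 10.60 and 10.46 in Cxcr5+Bcl6- and 11.10 and 10.88 in Cxcr5-Bcl6- cells, and fell by 2.11 against Cxcr5-Bcl6- (adjusted p = 6.50e-08) and by 1.65 against Cxcr5+Bcl6- cells (adjusted p = 8.16e-07). Dctd, the dCMP deaminase, stood at 8.72 and 8.80 in Cxcr5+Bcl6+, 10.34 and 10.38 in Cxcr5+Bcl6- and 10.79 and 10.77 in Cxcr5-Bcl6- cells, and fell by 2.02 (adjusted p = 2.18e-08) and 1.60 (adjusted p = 2.65e-07) in the same comparisons. The groups did not overlap in Dck, and the Cxcr5+Bcl6+ arrays lay far below all others in Shmt1 and Dctd.

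Among the regulators of S phase entry, Rbl2, a pocket protein that restrains E2F, rose by 0.95 ± 0.091 in Cxcr5+Bcl6+ against Cxcr5-Bcl6- cells (adjusted p = 8.15e-06), and Rb1, the retinoblastoma protein gene, rose by 0.56 ± 0.091 in Cxcr5+Bcl6+ against Cxcr5+Bcl6- cells (adjusted p = 9.16e-04). Ccna2, the cyclin A2 gene, rose by 1.30 ± 0.093 in Cxcr5+Bcl6- against Cxcr5-Bcl6- cells (adjusted p = 8.29e-06). The largest falls in that comparison were of pyrimidine synthesis genes, Umps by 0.58 (adjusted p = 0.00599) and Ctps by 0.56 (adjusted p = 0.00310). The Umps call in Cxcr5+Bcl6- against Cxcr5-Bcl6- cells ended with p-values adjusted over all rows (0.0562). Shmt1 (-0.47, adjusted p = 0.0158), Dctd (-0.42, 0.00881) and Nme2 (-0.37, 0.0194) also fell in that comparison, whereas Dck rose as given above.

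Genes of mitosis, listed for comparison, rose in 25 of 25 cases in Cxcr5+Bcl6+ against Cxcr5-Bcl6- cells (median 0.77) and in 25 of 25 in Cxcr5+Bcl6- against Cxcr5-Bcl6- cells (median 1.21). In Cxcr5+Bcl6+ against Cxcr5+Bcl6- cells 19 of 25 fell and 0 rose (median -0.48). Of 26 mitosis genes listed, 25 were measured. Among all probe sets at or above the median level, 21.3% rose, 9.15% rose and 23.6% fell in these comparisons in that order. The replication genes have medians of -0.090, 0.33 and -0.48 in the same comparisons. In Cxcr5+Bcl6+ against Cxcr5-Bcl6- cells 5 of the 44 replication genes rose, 17 fell (38.6%, against 30.6% of probe sets at or above the median level) and 22 were not called. The difference between the lists was not tested.

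Genes listed as markers of other cells differed between groups, and whether other cells or the sorted T cells gave their signal was not tested. The germinal centre B and plasma cell list holds Fas, Irf4, Prdm1 and Xbp1 among others, and the CD8 T and NK cell list Nkg7, Eomes and Crtam. T cell markers had a summed level of 15.83 to 16.00 on the log2 scale on all 6 arrays. Of these 10 markers, 4 rose and 3 fell in Cxcr5+Bcl6+ against Cxcr5-Bcl6- cells, with differences from -0.33 to 0.79. In Cxcr5+Bcl6+ against Cxcr5-Bcl6- cells 8 of 13 B cell markers rose and 4 fell, with summed levels of 12.74 and 12.80 in Cxcr5+Bcl6+, 12.44 and 12.38 in Cxcr5+Bcl6- and 12.64 and 12.72 in Cxcr5-Bcl6- cells, and Cd79a and Cr2 were under the receptor floor on all arrays. Of 10 germinal centre B and plasma cell markers, 2 rose and 5 fell in that comparison, with sums of 13.16 and 13.08, 13.89 and 13.85, and 14.15 and 14.13 in the same group order, and Gcsam and Rgs13 were under the floor. Of 19 myeloid and dendritic cell markers, 1 rose and 11 fell, with sums of 12.11 and 12.14, 12.35 and 12.33, and 13.69 and 13.68. Itgam, Csf1r, Cd14, Adgre1, Clec9a and Xcr1 were under the floor on all arrays. Of 8 CD8 T and NK cell markers, 1 rose and 6 fell, with sums of 10.54 and 10.45, 11.84 and 11.77, and 12.06 and 11.99, and Klrb1c, Ncr1 and Klrk1 were under the floor. The part of any of these cells in the members' differences was not tested.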

How the data were processed

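The authors deposited 1 table of log2 probe-set levels for 6 Affymetrix whole-transcript arrays of biotin-labelled total RNA. GCOS 1.1, RMA and Affymetrix Expression Console are named in the submitters' processing notes without order or settings, and no genome build of the array annotation is given there. The scale was taken as log2 from the values' range. Of 35556 rows, 21789 carry 1 gene symbol, 1621 several and 12146 none here; symbols were updated through Entrez identifiers for 21698.

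The 23410 named probe sets were fitted with limma 3.58.1 in R 4.3.3 (lmFit with group means over all 6 arrays, eBayes at its defaults, two-sided, Benjamini-Hochberg adjustment over all of them, threshold 0.05). Residual degrees of freedom were 3, and the prior had 8.25 with an SD of 0.099. ± after a difference is its SE. The fit was tested on simulated data. Arrays have no read depth, and their number limits the precision.

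Members and gene lists were chosen with earlier results of these data known. Per-array levels were given for Mcm2 to Mcm7 and, in each role, for the genes of largest and smallest difference in each comparison; Mcm10, Rrm1 and Rpa3, chosen after their values were seen, also have them. Other pathway genes are the 2 largest rises and 2 largest falls past the threshold in each comparison. Alternatives changed the variance moderation, normalisation, filter, features tested, arrays and threshold; their use on the patterns over pairs of comparisons was added after seeing the data.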

Additional observations from a re-analysis of the deposited data

How the results depend on the processing

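None of the 107 differences of single genes examined changed sign under the alternatives run, and 58 kept their side of the threshold under all of them. A minimum of 1.5-fold left 2 rises and 6 falls in Cxcr5+Bcl6+ against Cxcr5-Bcl6- cells, 8 rises in Cxcr5+Bcl6- against Cxcr5-Bcl6- cells, and 1 rise and 17 falls in Cxcr5+Bcl6+ against Cxcr5+Bcl6- cells. Adjusting over all 35556 rows left 12 rises in Cxcr5+Bcl6- against Cxcr5-Bcl6- cells. The calls that ended there were Cdc6 (adjusted p = 0.0562), Mcm6 (0.0846), Mcm7 (0.141), Gins1 (0.132), Pola1 (0.0767), Rfc4 (0.111), Rfc5 (0.0568) and Tk1 (0.123). It also ended the calls of Mcm4, Prim1, Pold1, Lig1 and Dut in Cxcr5+Bcl6+ against Cxcr5-Bcl6- cells. In Cxcr5+Bcl6+ against Cxcr5+Bcl6- cells those of Pola1, Prim2 and Rrm2 ended. Leaving out 1 array gave 4 to 5 rises and 13 to 19 falls in the first comparison, 8 to 23 rises and 0 falls in the second, and 2 rises and 24 to 30 falls in the third. The Mcm6 offset then ran from 1.20 to 1.36, from 0.16 to 0.32 and from 1.01 to 1.07. With the replicate number as a term (replicate block) the counts were 5 rises and 17 falls, 17 rises and 0 falls, and 2 rises and 30 falls, and the calls of Pold1 in the first comparison and of Mcm7, Gins1 and Tk1 in the second ended. Deviations of same-numbered arrays from their group means were correlated over the 23410 named probe sets. For the groups without the reporter r was 0.26. For Cxcr5+Bcl6+ arrays it was -0.23 with Cxcr5-Bcl6- and -0.046 with Cxcr5+Bcl6- arrays. A group of 2 arrays gives only 1 deviation per probe set, so these values cannot decide whether the numbers pair the arrays. The causes of these changes were not tested beyond the settings themselves. With 2 arrays a group, small differences cannot be told from the spread, and members under the receptor floor are limited by signal.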
